A study of Sus scrofa with 12 samples.

Results

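The genes described here are 10 genes by which vascular endothelial cells are commonly recognised: CDH5, CLDN5, PECAM1, ICAM2, ECSCR, TEK, TIE1, ERG, EGFL7 and NOS3. They were chosen by name, not by their values, and every probe set annotated with exactly 1 of these symbols was taken. This gave 15 probe sets for the 10 genes, out of 23999 probe sets on the array and 6765 genes with a probe set of a single symbol. All 10 genes had at least 1 probe set that passed the filter on low values, a log2 value over 4 in at least 3 of the 12 arrays. In all, 13 of the 15 probe sets passed.

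The cells came from the aortic valves of adult pigs, digested with collagenase II, and are labelled as valvular interstitial cells, the fibroblast-like cells of the leaflet. Total RNA was hybridised to 12 Affymetrix porcine arrays, 3 biological replicates in each of 4 groups. P0 cells were taken straight after isolation, with 0 passages and no culture or treatment. P2 cells had gone through 2 passages on plastic (TCPS) and were kept in media 199 at a low serum content of 1% (fetal bovine serum) until day 3. They were left untreated or had received 5 ng/ml of porcine TGF-β1 over the last 8 h or 24 h. The labels number the replicates 1 to 3 in each group but name no animal, sex, strain or pooling. The p-values therefore measure the spread between these samples.

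A valve leaflet is covered by a single layer of endothelial cells, which lies over the interstitial cells and is separated from them only incompletely by digestion. Endothelial cells hold together through VE-cadherin and claudin junctions, respond to angiopoietins through the Tie receptors, make nitric oxide, and keep their identity through ETS-family transcription factors such as ERG. Valve endothelium is also known for giving rise to mesenchymal cells in response to TGF-β, a change in which junction genes are lost.

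The cells' label was checked against a list of interstitial and fibroblast markers. Its 16 measured genes had a mean log2 level of 12.19 to 12.28 in the P0 arrays and of 11.55 to 11.85 across the 9 P2 arrays. VIM, the mesenchymal intermediate filament vimentin, averaged 15.62 in P0 and 15.57 in untreated P2 cells, and DCN, the matrix proteoglycan decorin, 14.98 and 13.34. The endothelial genes were thus read in preparations in which mesenchymal markers were high. VWF, the clotting factor stored in endothelial granules, had group means of 4.25 to 4.56, below the 4.58 that marks the 95th percentile of the 64 reporter control probe sets on these arrays. VWF belongs to a list of further endothelial genes, of which 20 were measured. Their mean was 7.17 to 7.28 in the P0 arrays and 5.84 to 6.76 in the P2 arrays. In P0, FLT1 of this list averaged 4.20, while PROCR averaged 12.69, RAMP2 11.98 and CD34 9.55. In bulk RNA of this kind, fewer cells of a type and less RNA per cell cannot be told apart.

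The 12 array medians spanned 0.079, and arrays of the same group correlated at 0.982 to 0.994. Replicate numbers paired the P2 arrays: the deviations of same-numbered arrays from their group means correlated at 0.348 to 0.679, against -0.513 to 0.0796 for different numbers. Between P0 and P2 arrays of the same number the correlation was -0.0916 to 0.0158. The number was therefore kept as a block in comparisons among P2 arrays and not in the comparison with P0. For short, P2 arrays numbered 1, 2 and 3 are called cultures 1, 2 and 3, although the labels do not say that same-numbered arrays share a source.

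All 10 endothelial genes were above the reporter control level in every P0 array. In culture, their level went with the replicate number. CDH5, TEK, ECSCR, PECAM1, TIE1, CLDN5, ICAM2, NOS3 and EGFL7 were all lower in the 3 P2 arrays numbered 3 than in the other 6, while ERG was not. Among the genes above the reporter control level in all arrays, CDH5 had the widest gap, with means that differed by -3.44 on the log2 scale.

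**Figure D1:**
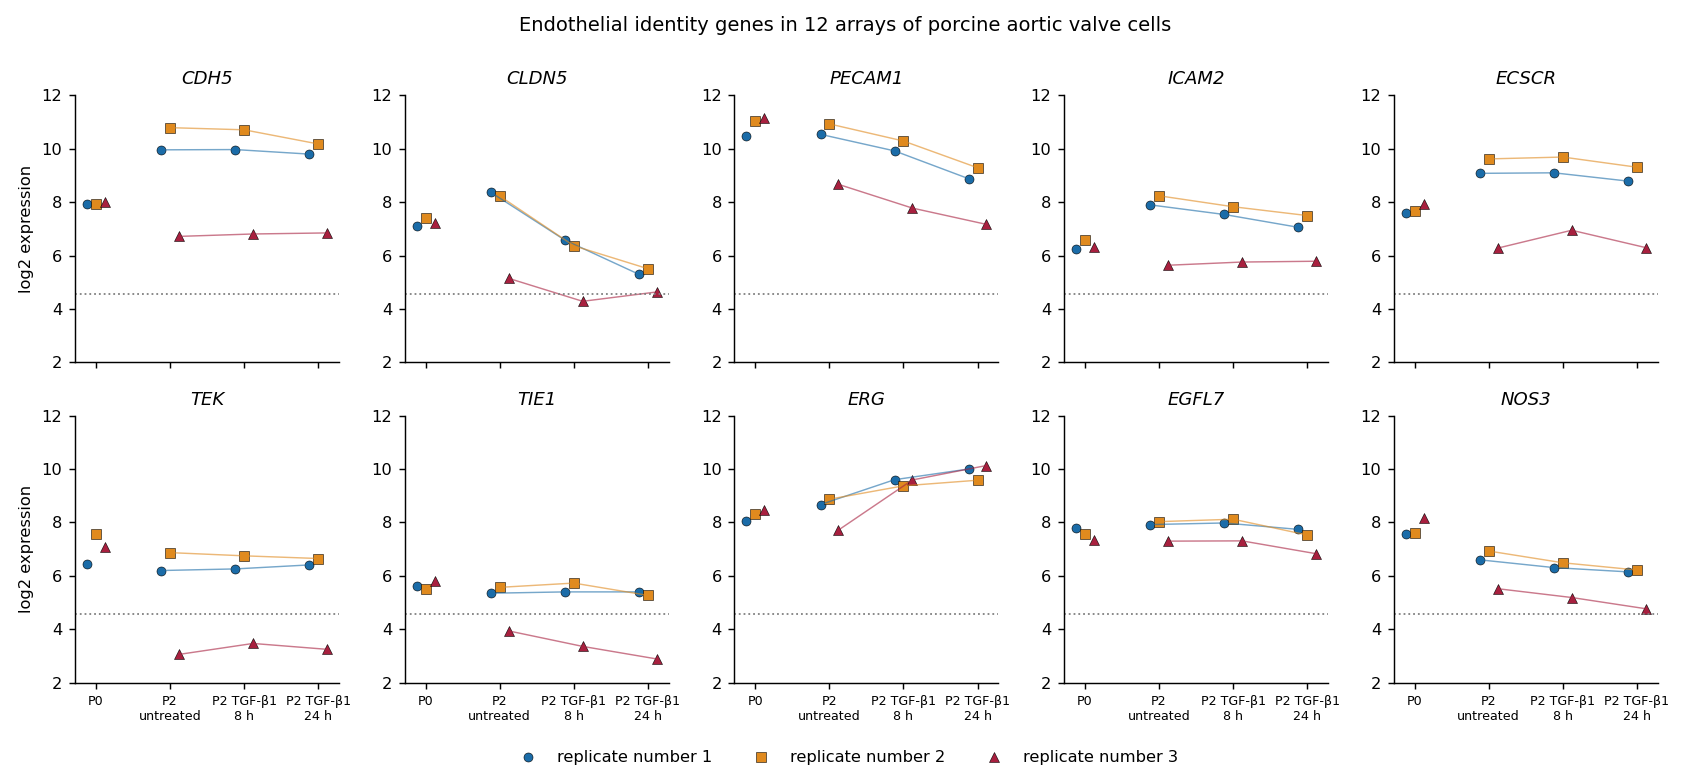
Log2 expression (vertical axes) of the 10 endothelial genes in the 12 arrays, by group (horizontal axes) and replicate number (colour and symbol); lines join same-numbered P2 arrays, and the dotted line is the reporter control level of 4.58. In 9 of the 10 panels the P2 triangles of number 3 lie under the other P2 points, and in the ERG panel the treated arrays of all 3 numbers lie above the untreated ones.

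CDH5 encodes VE-cadherin, the adhesive protein of endothelial adherens junctions. Its log2 level was 7.93, 7.94 and 8.00 in P0 replicates 1, 2 and 3 and 9.96, 10.79 and 6.72 in untreated P2 replicates 1, 2 and 3. With TGF-β1 it was 9.97, 10.71 and 6.81 at 8 h and 9.80, 10.18 and 6.85 at 24 h. Cultures 1 and 2 stood above all fresh preparations and culture 3 stood below them, so that the P0 values lay inside the range of the untreated group. The second CDH5 probe set, at a lower signal, was highest in the P2 arrays numbered 1 and 2, at 5.77 to 6.77. It had 4.24 to 4.36 in P0 and 3.82 to 4.08 in the P2 arrays numbered 3. Both of these ranges are under the reporter control level, so their order cannot be read from this probe set.

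CLDN5, the claudin of endothelial tight junctions, read 7.10, 7.40 and 7.24 in P0 and 8.37, 8.23 and 5.15 in untreated P2 cells. It read 6.58, 6.37 and 4.29 at 8 h and 5.30, 5.51 and 4.64 at 24 h of TGF-β1. In cultures 1 and 2 it was above every P0 array before treatment and below every one with TGF-β1, and in culture 3 it was below them throughout.

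PECAM1 (CD31) is an adhesion molecule at the contacts between endothelial cells and is also carried by platelets and leukocytes. It had 10.46, 11.05 and 11.15 in P0 and 10.54, 10.93 and 8.67 in untreated P2 cells, then 9.92, 10.29 and 7.78 at 8 h and 8.88, 9.29 and 7.17 at 24 h. Each culture fell at each time, and culture 3 started lower. The second PECAM1 probe set had 8.06 to 8.89 in P0 and 8.39, 8.62 and 6.61 in untreated cells, and came to 6.85, 7.23 and 4.71 at 24 h.

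ICAM2, a ligand for leukocyte integrins that resting endothelium carries, was at 6.26, 6.59 and 6.34 in P0 and at 7.90, 8.24 and 5.64 in untreated P2 cells. Treated cells had 7.54, 7.83 and 5.76 at 8 h and 7.06, 7.50 and 5.79 at 24 h. Cultures 1 and 2 were above every P0 array in all 3 P2 groups, and culture 3 was below every one. In RefSeq's pig assembly Sscrofa11.1, ICAM2 and PECAM1 lie on chromosome 12 with 2 protein-coding genes between them.

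ECSCR is a surface glycoprotein of endothelial cells. It was at 7.61, 7.66 and 7.93 in P0, at 9.08, 9.62 and 6.28 in untreated cells, at 9.10, 9.69 and 6.95 at 8 h and at 8.79, 9.31 and 6.30 at 24 h. As for CDH5, the P2 arrays numbered 1 and 2 stood above every P0 array and those numbered 3 below. The second ECSCR probe set was placed likewise, with 8.19 to 9.39 in the P2 arrays numbered 1 and 2, 5.33 to 6.05 in those numbered 3 and 6.81 to 7.15 in P0.

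TEK (Tie2) is the receptor for angiopoietins. It read 6.43, 7.55 and 7.07 in P0 and 6.20, 6.87 and 3.06 in untreated cells, and the treated arrays read 6.26, 6.75 and 3.47 at 8 h and 6.41, 6.65 and 3.25 at 24 h. All 3 P2 arrays numbered 3 were under the reporter control level, while every other array was above it. The other 2 TEK probe sets stayed at 2.14 to 3.13 in all 12 arrays and did not pass the filter.

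TIE1, the related receptor that pairs with TEK, was at 5.61, 5.51 and 5.80 in P0 and at 5.35, 5.57 and 3.94 in untreated cells. It was at 5.40, 5.73 and 3.36 at 8 h and at 5.40, 5.27 and 2.89 at 24 h. As for TEK, only the P2 arrays numbered 3 were under the reporter control level.

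ERG is the ETS transcription factor that maintains endothelial junction genes. Its level was 8.06, 8.33 and 8.46 in P0, 8.67, 8.87 and 7.71 in untreated P2 cells, 9.60, 9.37 and 9.59 at 8 h and 10, 9.58 and 10.13 at 24 h. Every treated array lay above every untreated array, and the array of culture 3, lowest of the untreated group, was the highest at 24 h.

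EGFL7, a secreted protein of the endothelial matrix, was at 7.81, 7.56 and 7.36 in P0, 7.92, 8.03 and 7.30 in untreated cells, 7.98, 8.12 and 7.31 at 8 h and 7.74, 7.53 and 6.83 at 24 h. Its gap between culture 3 and the others was the smallest of the 9 genes that had one. NOS3, the endothelial nitric oxide synthase, was at 7.57, 7.62 and 8.17 in P0 and at 6.60, 6.93 and 5.52 in untreated cells, then at 6.31, 6.49 and 5.19 at 8 h and at 6.15, 6.22 and 4.77 at 24 h. All 9 P2 arrays were below all 3 P0 arrays for NOS3, which held for no other gene of the group.

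The differences between replicate numbers are given as a description, since this pattern was known from earlier results on the same arrays. In an additive limma model of group and number over the 9 P2 arrays, 9 of the 10 genes were called by the moderated F test for number, against 12.3% of the 17638 probe sets tested. All 9 were lower in number 3 than in the mean of numbers 1 and 2, which held with a call for 5.32% of all probe sets, and 0 of the 10 were called higher, against 7.03%. The same 9 were called lower in number 3 than in number 1 (9.09% of all probe sets called in either direction) and than in number 2 (12.8%). For all 9, the 3 arrays numbered 3 lay below the other 6, a pattern that 4.60% of all probe sets showed. The median difference over the 10 genes was -2.05, or -1.94 with the 2 genes under the reporter control level in number 3 set to that level, against 0.01 over all tested probe sets.

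CDH5 was lower in number 3 by -3.44 ± 0.120 (SE) on the log2 scale, a 10.9-fold difference and the widest among the genes above the reporter control level there. ECSCR differed by -2.75 ± 0.113, PECAM1 by -2.10 ± 0.0884 and ICAM2 by -1.95 ± 0.154. CLDN5, which varied most with treatment, differed by -2.03 ± 0.366 (adjusted p = 0.0287, limma F test). The CLDN5 difference no longer passed when any 1 of these arrays was left out: untreated replicates 1, 2 and 3 (adjusted p = 0.0595, 0.0551 and 0.0612), 8 h replicates 1, 2 and 3 (0.0752, 0.0721 and 0.122) and 24 h replicate 2 (0.0568).

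Both Tie receptors were under the reporter control level in number 3, so their folds are lower bounds: TEK was at least 3.83-fold and TIE1 at least 1.83-fold lower. NOS3 differed by -1.29 ± 0.0799 and EGFL7 by -0.74 ± 0.0831. ERG alone was not called, with -0.20 ± 0.246 (adjusted p = 0.734, limma F test). Between numbers 1 and 2, where 1.12% of probe sets were called, 0 of the 10 genes was called by limma. CDH5 came nearest, with 0.65 ± 0.138 and an adjusted p of 0.0810. The second ECSCR probe set was called there, higher in number 2 by 0.78 ± 0.0963 (adjusted p = 0.0178, limma).

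**Figure D2:**
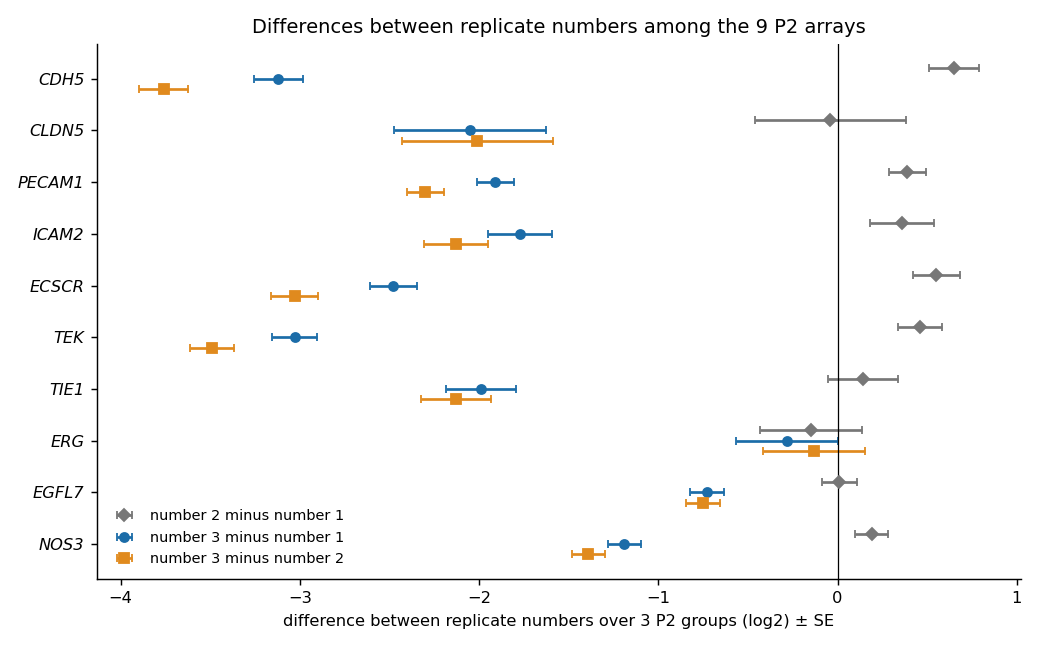
Differences between replicate numbers for the 10 endothelial genes (rows), averaged over the 3 P2 groups, on the log2 scale; points are the limma estimates and bars their standard errors. Both comparisons with number 3 lie at or below -0.73 for 9 genes and near 0 for ERG, and number 2 minus number 1 lies between -0.15 and 0.65; TEK and TIE1 are under the reporter control level in number 3, so their points there give no exact size.

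Each gene was also correlated with the others over the P2 arrays. Pearson's r of each gene with the mean of the other 9, over 9 arrays linked by number, was 0.991 for ICAM2, 0.983 for CDH5, 0.977 for ECSCR, 0.965 for TEK, 0.960 for NOS3, 0.949 for TIE1, 0.914 for EGFL7 and 0.898 for PECAM1. It was 0.750 for CLDN5 and -0.06 for ERG. All genes but ERG shared the gap between replicate numbers given above, and r includes that gap. A high r is therefore not a separate result. Whether the genes moved together within a replicate number was not tested. In culture 1, changes after 24 h of TGF-β1 ranged from -3.07 for CLDN5 to 0.21 for TEK among the genes other than ERG.

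Other genes separated number 3 as well. Of 46 further endothelial genes listed, 17 were tested, and 10 were called lower and 1 higher in number 3 than in the mean of numbers 1 and 2. Over all tested probe sets these shares were 5.32% and 7.03%, which also applies to the lists that follow. One of the 10 called lower, ESAM, had 6.40 in numbers 2 and 3 and 6.77 in number 1. Another ESAM probe set, with a lower signal, had means of 5.44, 5.70 and 3.82 in numbers 1, 2 and 3. The last of these is under the reporter control level. TFPI, the inhibitor of tissue factor, was at least 3.93-fold lower. ADGRL4, an adhesion receptor of endothelium, was lower by -1.66 ± 0.133, SELP, the adhesion molecule P-selectin, by -1.58 ± 0.111 and PROCR, the protein C receptor, by -1.38 ± 0.147. AQP1, a water channel, was higher by 1.33 ± 0.0848. THBD and CD34, thrombomodulin and a sialomucin, differed by 0.14 each and were not called (adjusted p = 0.794 and 0.269, limma F test).

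Of the lymphatic endothelial list, 2 genes were tested and PDPN, the membrane glycoprotein podoplanin, was called higher in number 3, by 0.93 ± 0.101 (adjusted p = 0.00376, limma F test). The mean of its 3 measured genes was 7.02 to 7.22 in P0, 4.72 to 5.70 in number 3 and 4.46 to 5.37 in the other P2 arrays.

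Markers of macrophages and monocytes moved with the endothelial genes in part. Of 12 tested, 9 were called by the F test, 8 with a lower value in number 3 than in the mean of numbers 1 and 2 and 1, CD163, with a higher one (1.16 ± 0.145). Over all tested probe sets, 5.32% were called lower and 7.03% higher. Of the 8, AIF1, C1QA and C1QC were below number 2 but not below number 1. LAPTM5 differed by -1.80 ± 0.0955 and FCGR3A by -0.88 ± 0.0676. The mean of the 13 measured macrophage genes was 5.96 to 6.39 in the arrays numbered 3 and 6.04 to 6.83 in the other P2 arrays, so these ranges overlapped. Among 16 interstitial markers, 5 were called by the F test, all with a higher value in number 3 than in the mean of numbers 1 and 2. COL3A1 and TCF21 were above both numbers, while THY1, FBLN1 and S100A4 were above number 2 but not above number 1. The COL3A1 probe set had a low signal for this list, with means of 5.22, 5.30 and 5.91 in numbers 1, 2 and 3. The mean of the 16 genes was 11.73 to 11.85 in number 3 and 11.55 to 11.79 in the others. By the limma F test 0 of 8 smooth muscle and 0 of 6 cardiac genes were called, with 0 and 2 at an unadjusted p under 0.05. The part of these markers in the endothelial difference was not tested.

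EIF1AY, a gene that RefSeq places on the pig Y chromosome, was at 8.39 to 8.61 in P0 and at 7.44 to 8.09 in the P2 arrays numbered 1 and 2. In the 3 P2 arrays numbered 3 it was at 2.93 to 3.86, under the reporter control level. EIF1AY was singled out after its values were seen, and the other 5 probe sets of genes placed on this chromosome did not separate number 3. CD99 was at 12.34 to 12.63 in number 3 and 12.24 to 13 in the other P2 arrays, and LOC100624648 at 9.99 to 10.36 and 9.55 to 10.25. Whether CD99 and LOC100624648 lie on this chromosome only was not checked, so their levels are not read for sex. The 3 probe sets of SRY and LOC396706 were under the reporter control level in all 12 arrays, at 2.11 to 3.56, and so could not separate any array. The labels give no animal or sex, so replicate number and source of the cells cannot be told apart.

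The other genes of the pathways around the endothelial set were read from lists. Over all tested probe sets, 5.32% were called lower and 7.03% higher in number 3. Of 10 tested endothelial transcription factors, LMO2 and HHEX were called lower in number 3, LMO2 by -1.71 ± 0.107 and HHEX by at least 3.34-fold, while EPAS1 was higher by 0.47 ± 0.0841. Among 15 genes of the nitric oxide pathway, 5 were called lower and 0 higher. They included ARG1, an arginase that competes with NOS3 for arginine, at -1.90 ± 0.0782, and ASS1, which helps to remake arginine, at -1.01 ± 0.0981. Among 14 junction partners, 5 were called lower, CDH13 by -0.88 ± 0.0800, and CLDN11 was called higher by 0.69 ± 0.0888. ANGPT1, the agonist ligand of TEK, was the 1 called gene of the 4 in the angiopoietin list, higher by 0.85 ± 0.150.

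The comparison of untreated P2 with P0 cells sets passaged cells on plastic in low serum against freshly isolated cells. Passage, culture conditions, cell mix and source of the cells cannot be told apart in it. In the fit over all 12 arrays, NOS3 was the only endothelial gene called, lower in culture by -1.44 ± 0.462 (2.71-fold, adjusted p = 0.0176, limma). This is 1 of 10 genes, against 59.4% of all tested probe sets, of which 33.6% were higher and 25.8% lower. NOS3 was also the only gene whose groups did not overlap, against 65.1% of probe sets. NOS3 did not pass without P0 replicate 3 (adjusted p = 0.0646) and without untreated replicate 3 (-1.02, adjusted p = 0.0780).

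The remaining 9 genes had differences from -1.64 to 1.20 with standard errors of 0.258 to 1.18. CDH5 differed by 1.20 ± 1.18 (adjusted p = 0.405, limma), ICAM2 by 0.86 ± 0.685, ECSCR by 0.59 ± 0.951, EGFL7 by 0.17 ± 0.279 and ERG by 0.13 ± 0.258. CLDN5 had the same mean in both groups, 7.25, with a 95% interval of the difference from -1.67 to 1.68. PECAM1 differed by -0.84 ± 0.736, TIE1 by -0.69 ± 0.717 and TEK by -1.64 ± 1.13. With replicate number as a block over all arrays, TEK was called as well (adjusted p = 0.0424), although P0 numbers showed no link to P2 numbers.

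The untreated cultures lay on opposite sides of the P0 arrays. In untreated replicate 1, 6 genes stood above the range of the P0 arrays, 3 below and 1 inside it, and in replicate 2 these counts were 6, 1 and 3. In untreated replicate 3 all 10 genes stood below the P0 range. The 6 genes above it in replicates 1 and 2 were CDH5, CLDN5, ICAM2 and ECSCR at the cell surface, the nuclear factor ERG and the secreted EGFL7. PECAM1, the Tie receptors and NOS3 were not above it in any culture. The share of all probe sets outside the P0 range was not counted for single arrays, so these counts have no background. As whole groups, untreated P2 and P0 did not overlap for 65.1% of tested probe sets.

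A further fit left out all arrays numbered 3, with the low values of these genes in untreated replicate 3 already known. Higher values in culture follow in part from that choice, so this fit is a description. The P0 array numbered 3 was left out too, although P0 numbers showed no link to P2 numbers. In this fit 6 of the 10 genes were called, against 56.6% of all tested probe sets. Of these 5 were higher in culture, against 32.0%, and NOS3 was lower, against 24.6%. CDH5 was higher by 2.44 ± 0.314 (adjusted p = 0.000282, limma), ECSCR by 1.71 ± 0.266, ICAM2 by 1.64 ± 0.211, CLDN5 by 1.05 ± 0.160 and ERG by 0.57 ± 0.186 (adjusted p = 0.0295). NOS3 was lower by -0.83 ± 0.151 (adjusted p = 0.00182). PECAM1 differed by -0.02 ± 0.253, TEK by -0.46 ± 0.371, TIE1 by -0.10 ± 0.158 and EGFL7 by 0.29 ± 0.148, and none of these passed. With only untreated replicate 3 left out, ICAM2 (1.67, adjusted p = 0.0286) and ERG (0.49, adjusted p = 0.0401) were the genes called.

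**Figure D3:**
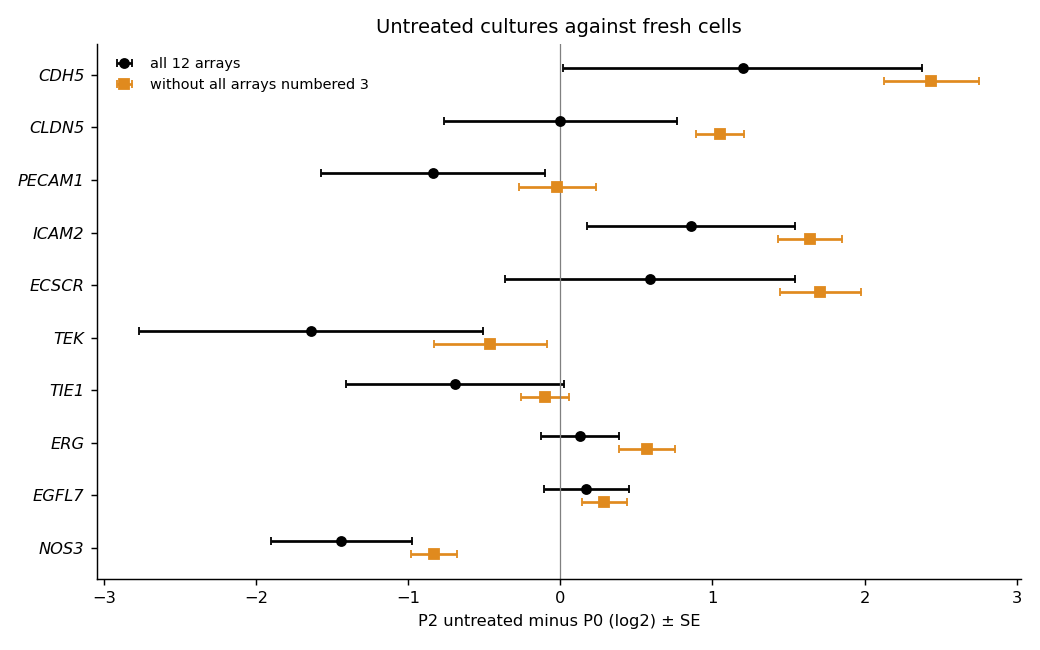
Difference between untreated P2 and P0 cells (horizontal axis, log2) for the 10 endothelial genes, over all 12 arrays (black circles) and without all arrays numbered 3 (orange squares); bars are limma standard errors. Without number 3 the points of CDH5, CLDN5, ICAM2 and ECSCR move to between 1.05 and 2.44, and NOS3 stays below 0 in both. Number 3 was left out with its low untreated values in these genes known, so the move follows in part from that choice.

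The lists of other genes were compared with P0 in the fit over all 12 arrays, in which 0 of the 10 endothelial genes were called higher. Of all tested probe sets, 25.8% were called lower in culture and 33.6% higher, shares to set beside each list. Of the 17 further endothelial genes tested, 5 were called lower in culture and 1 higher. SELE, the adhesion molecule E-selectin, was at least 13.5-fold lower, THBD by -3.49 ± 0.239, CD34 by -2.60 ± 0.145 and RAMP2, a receptor partner for adrenomedullin, by -2.10 ± 0.174. Among the 10 transcription factors 6 were lower and 2 higher, with KLF4, which responds to flow, at -2.85 ± 0.170 and EPAS1 at 1.88 ± 0.251. In the nitric oxide list 8 of 15 were higher and 2 lower, with DDAH1, which degrades an inhibitor of NOS3, at 3.68 ± 0.178 and ASS1 at -1.86 ± 0.371. Of 6 Notch genes, HES1 was lower by -3.26 ± 0.315, JAG1 by -1.34 ± 0.120 and HEY2 higher by 1.87 ± 0.124. Macrophage markers were lower for 9 of 12 genes, with CD163 at -5.55 ± 0.478, and the mean of the list was 8.51 to 8.92 in the P0 arrays and 6.39 to 6.83 in the untreated ones. The part of these cells in the levels of PECAM1, which they share, was not tested.

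TGF-β1 is the growth factor with which the cultures were stimulated, and the question is how the treated cells differed from untreated ones. At 8 h PECAM1 and NOS3 were called lower and ERG higher, with NOS3 and ERG close to the threshold. CLDN5 had the widest difference, -1.50, and was not called. CDH5, ECSCR, ICAM2, TEK, TIE1 and EGFL7 differed by 0.25 or less. By 24 h PECAM1, CLDN5, NOS3 and EGFL7 were called lower and ERG higher. These are the values of the limma fit with replicate number as a block over 9 arrays, which compares arrays of the same number.

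At 8 h, 3 of the 10 genes were called, against 12.5% of all tested probe sets, 2 of them lower (against 6.77%) and 1 higher (against 5.70%). PECAM1 fell by 0.72 ± 0.102 (adjusted p = 0.00614, limma), by 0.62, 0.64 and 0.89 in cultures 1, 2 and 3. It remained called whichever array was left out, with adjusted p from 0.0212 to 0.0354. ERG rose by 1.10 ± 0.284 (adjusted p = 0.0445) and was the 1 gene whose groups did not overlap, against 25.5% of probe sets. NOS3 changed by -0.35 ± 0.0923 (adjusted p = 0.0472).

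The 8 h calls of ERG and NOS3 lay close to the threshold. ERG missed it when untreated replicate 1 or 3 was left out (adjusted p = 0.101 and 0.0559) and likewise for 8 h replicate 1, 2 or 3 (0.130, 0.0980 and 0.192). NOS3 was lost without any 1 of the 6 arrays compared, with adjusted p from 0.0742 to 0.188. CLDN5 was lower by -1.50 ± 0.423 and missed the threshold (adjusted p = 0.0590, limma), and was called without untreated replicate 3 (-2.06, adjusted p = 0.0219). CDH5 differed by 0.01, with a 95% interval from -0.32 to 0.33, TEK by 0.12, TIE1 by -0.12 and ICAM2 by -0.22, and none was called.

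At 24 h, 5 of the 10 genes were called, against 20.0% of all tested probe sets, 4 of them lower (against 10.2%) and 1 higher (against 9.77%). PECAM1 fell by 1.60 ± 0.102 (3.03-fold, adjusted p = 0.00018, limma). The change was -1.66, -1.64 and -1.50 in cultures 1, 2 and 3, although culture 3 started at 8.67 and the others at 10.54 and 10.93. The second PECAM1 probe set fell by 1.61 ± 0.111.

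CLDN5 fell by 2.10 ± 0.423 (4.29-fold, adjusted p = 0.0136, limma), the widest change of the set. It changed by -3.07 and -2.72 in cultures 1 and 2 and by -0.52 in culture 3, where its untreated level of 5.15 was already near the reporter control level. It did not pass when untreated replicate 1 (adjusted p = 0.0598) or 2 (0.0509) was left out, nor when 24 h replicate 1 (0.0556) or 2 (0.0600) was.

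NOS3 fell by 0.64 ± 0.0923 (adjusted p = 0.00373, limma), in all 3 cultures, and stayed called whichever array was left out. EGFL7 fell by 0.38 ± 0.0959 (adjusted p = 0.0304), also in all 3 cultures. EGFL7 failed the threshold when untreated replicate 1, 2 or 3 (adjusted p = 0.0612, 0.0881 and 0.107) or 24 h replicate 2 or 3 (0.0886 and 0.0889) was left out.

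ERG moved the other way. It rose by 1.49 ± 0.284 (2.80-fold, adjusted p = 0.0111, limma), by 1.33, 0.71 and 2.42 in cultures 1, 2 and 3. It was again the 1 gene of the set whose groups did not overlap, against 25.3% of probe sets. The ERG call held in every fit at 24 h, including the fit without the block (adjusted p = 0.00487).

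The remaining 5 genes were not called at 24 h. CDH5 differed by -0.21 (95% interval -0.54 to 0.11), TEK by 0.06 (-0.23 to 0.35), ECSCR by -0.19 (-0.50 to 0.11) and ICAM2 by -0.48 (-0.89 to -0.06). TIE1 differed by -0.43 (95% interval -0.89 to 0.02, adjusted p = 0.165, limma). Its 24 h mean, 4.52, was under the reporter control level, with culture 3 at 2.89, so the size is not exact. In cultures 1 and 2, TIE1 was above that level and changed by 0.05 and -0.30. ICAM2 changed by -0.83 and -0.74 in cultures 1 and 2 and by 0.15 in culture 3. It was called without all arrays numbered 3 (-0.79, adjusted p = 0.0124), without untreated replicate 3 (-0.72, 0.0189) and without 24 h replicate 3 (-0.70, 0.0237). The second ECSCR probe set was called, at -0.38 ± 0.0963 (adjusted p = 0.0309), which the first was not.

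Most of these calls needed the block. In the fit of 4 group means over 12 arrays without it, the 24 h differences were the same, but only ERG was called, and PECAM1 (adjusted p = 0.223), CLDN5 (0.121), NOS3 (0.470) and EGFL7 (0.472) were not. At 8 h that fit also called ERG only (adjusted p = 0.0303), with PECAM1 at 0.713 and NOS3 at 0.792.

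**Figure D4:**
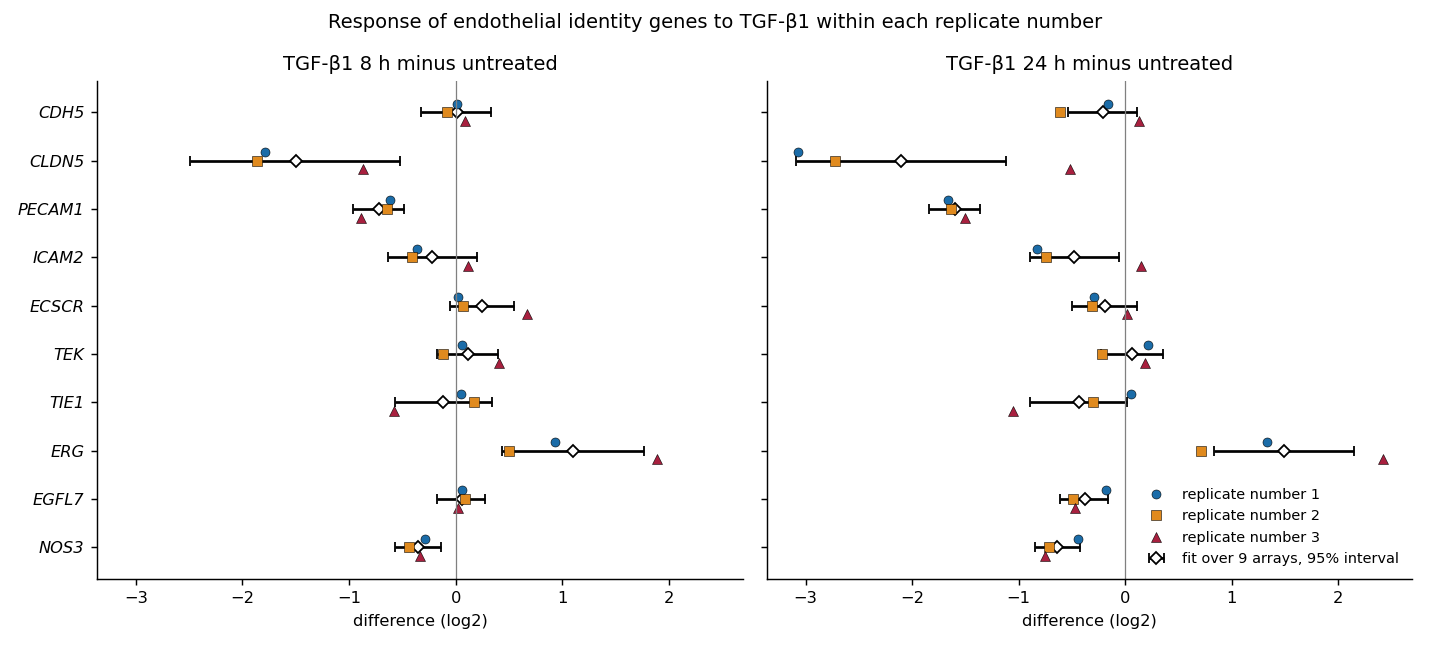
Differences between TGF-β1-treated and untreated P2 cells (horizontal axes, log2) for the 10 endothelial genes at 8 h (left) and 24 h (right); diamonds and bars are the limma fit with replicate number as a block and its 95% intervals, and coloured symbols the difference within each replicate number. At 24 h the PECAM1 symbols lie between -1.66 and -1.50, those of CLDN5 between -3.07 and -0.52, and those of ERG between 0.71 and 2.42; TIE1's mean at 24 h is under the reporter control level.

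Between 8 h and 24 h, PECAM1 was the only gene of the set called, lower at 24 h by -0.88 ± 0.102 (adjusted p = 0.0109, limma), against 2.44% of all tested probe sets called in either direction and 1.32% called lower. It fell by 1.04, 1.00 and 0.61 between these times in cultures 1, 2 and 3. It was not called when 8 h replicate 1 (adjusted p = 0.0970) or 2 (0.0723), 24 h replicate 1 (0.0772) or the block (0.805) was left out. EGFL7 differed by -0.44 ± 0.0959 (adjusted p = 0.0640), and ERG by 0.38 ± 0.284 (0.528). Both treated groups are compared with the same untreated arrays, so the 8 h and 24 h results are not independent of each other.

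Neighbouring genes of the pathways responded to TGF-β1 in both directions. Of 17 further endothelial genes, 7 were called lower and 2 higher at 24 h, against 10.2% and 9.77% of all tested probe sets. THBD was at least 4.36-fold lower and S1PR1, the sphingosine-phosphate receptor, fell by 1.94 ± 0.0834. SELP fell by 1.06 ± 0.128 and TFPI by 1.29 ± 0.191, while CD93, a surface lectin, rose by 0.97 ± 0.186 and ENG, a TGF-β co-receptor, by 0.68 ± 0.124. Of 10 transcription factors 5 were lower and 0 higher, with LMO2 at -1.29 ± 0.124 and EPAS1 at -0.83 ± 0.0971, against the rise of ERG. At 8 h, 7 of these 10 were lower and 0 higher, against 6.77% and 5.70% of all tested probe sets.

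Among 14 junction partners at 24 h, 5 were lower and 2 higher. Over all tested probe sets, 10.2% were lower and 9.77% higher at 24 h, which also applies to the lists below. VCAM1, an adhesion molecule for leukocytes, fell by 3.03 ± 0.247 and CLDN11, another claudin, by 2.03 ± 0.103. ICAM1 was higher at 8 h (10.08 against 9.42, adjusted p = 0.0180, limma). Of the VEGF list, VEGFA, the main ligand of endothelial growth, rose by 1.64 ± 0.217 and VEGFB was lower (8.75 against 9.15, adjusted p = 0.0147). In the nitric oxide list 5 genes were lower and 4 higher, with ARG2 up by 1.75 ± 0.258. Of 14 genes linked to the endothelial to mesenchymal transition, 6 rose and 1 fell, with SNAI1, a repressor of cadherins, up by 1.43 ± 0.169 and TGFB1 by 1.38 ± 0.161. The gene that fell was S100A4, also on the interstitial list, at -1.33 ± 0.0997. ACTA2, of the same transition list, averaged 15.25 at 24 h and 15.33 in untreated cells. The interstitial markers had a mean of 11.60 to 11.85 in untreated cells and of 11.55 to 11.73 at 24 h.

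Macrophage markers fell beside the endothelial genes, with 5 of 12 lower and 0 higher at 24 h, against 10.2% and 9.77% of all tested probe sets. FCGR3A changed by -1.13 ± 0.0781, and the mean of the list was 6.39 to 6.83 in untreated arrays and 5.96 to 6.43 at 24 h. Their part in the fall of PECAM1 was not tested.

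Genes that follow the endothelial set were looked for by Pearson's r with the mean of the 10 genes over the 9 P2 arrays. The candidates were 242 tested probe sets of a single symbol whose levels ranged over at least 2 log2 units there. MDK, the growth factor midkine, had the highest r, 0.987, and ADGRL4 (0.980), LAPTM5 (0.975), the stem cell factor receptor KIT (0.965), HHEX (0.961) and EIF1AY (0.960) were among the first 10. The lowest r were those of C9 (-0.951), the cartilage matrix genes COMP (-0.945) and ACAN (-0.941), and TIMP3 (-0.872), an inhibitor of matrix proteases. Over all 12 arrays, among 1702 such probe sets, TSPAN13 (0.977) and HHEX (0.957) were the most alike. Arrays of the same number were linked, so these correlations are a description.

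**Figure D5:**
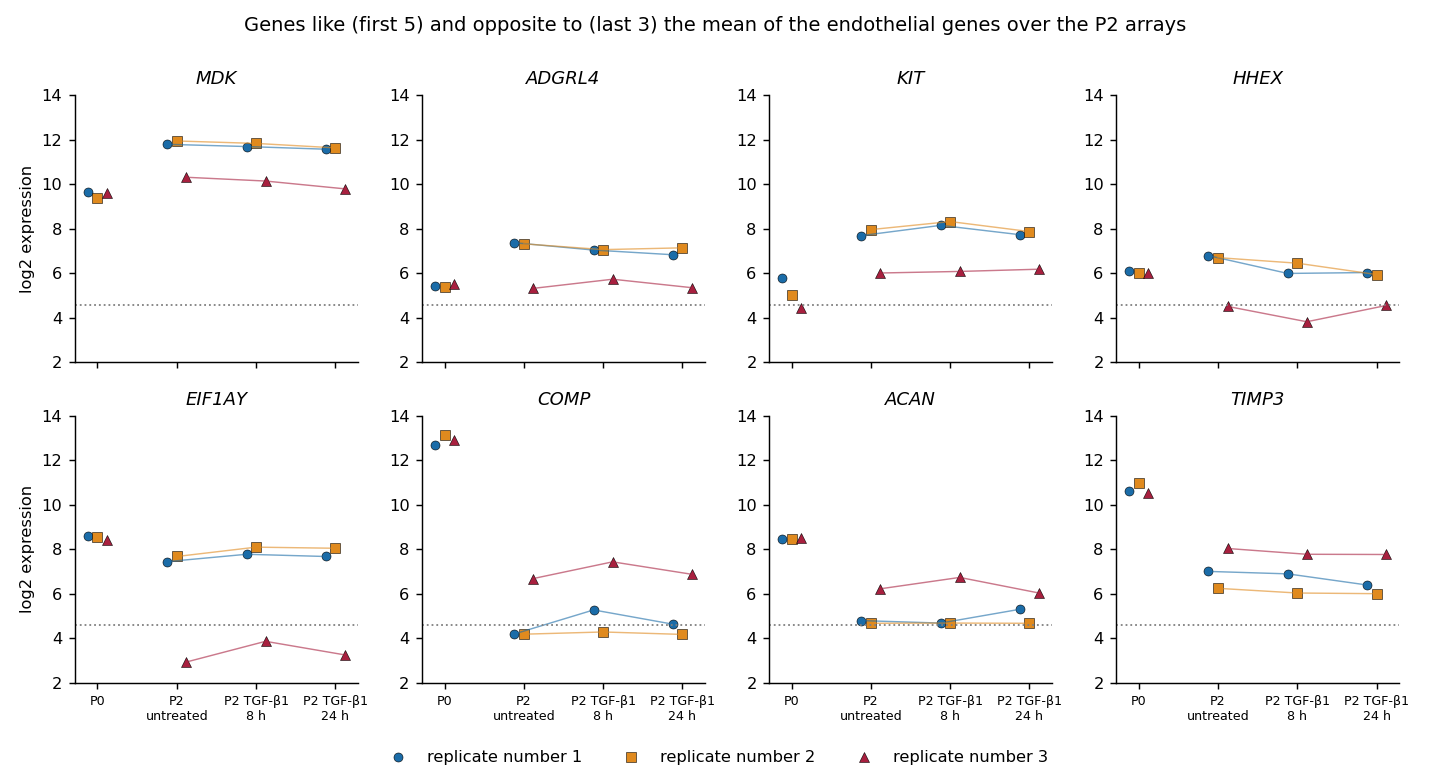
Log2 expression (vertical axes) by group (horizontal axes) and replicate number (colour and symbol) for 5 of the 10 genes most like the mean of the endothelial set over the P2 arrays (MDK, ADGRL4, KIT, HHEX, EIF1AY) and 3 of the 10 most opposite to it (COMP, ACAN, TIMP3); the dotted line is the reporter control level. In the P2 groups number 3 lies below the other numbers in the first 5 panels and above them in the last 3.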

How the data were processed

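The authors deposited log2 values, 1 for each probe set and array. GCRMA is named, without a version, per the submitters' processing notes. Further steps and scan dates were not stated in these sources, and the number of arrays limits the precision. Of the 23999 probe sets, 10069 carried 1 symbol, 198 several and 13732 none in the platform annotation. The 64 reporter controls were left out. Probe sets over log2 4 in at least 3 arrays (17638) were fitted with limma 3.58.1 in R 4.3.3 (lmFit, eBayes, two-sided), with Benjamini-Hochberg adjustment over all of them and calls at an adjusted p under 0.05. The comparison with P0 used 4 group means over 12 arrays. Comparisons among P2 arrays used group plus replicate number over 9 arrays, since same-numbered P2 arrays deviated together. A gene is represented by its probe set with 1 symbol and the highest mean. Where a group mean lay under the control level of 4.58, a fold is a lower bound from that level. Named genes are the 10 members, up to 4 called genes with the largest difference per list and comparison (or those nearest the threshold), and the 10 most and least alike. CD93, ENG, SELP and TFPI at 24 h and THBD and CD34 between numbers were named after their values were seen. The members and lists were chosen with earlier results of these data known. The fits were tested on simulated data. No genome was used. Gene neighbours come from RefSeq's Sscrofa11.1 table.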

Additional observations from a re-analysis of the deposited data

Results flagged for a closer look

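The effect of TGF-β1 on PECAM1 differed between the treatment times by the test of the difference itself. PECAM1 was lower at 24 h than at 8 h by -0.88 on the log2 scale (adjusted p = 0.0109, limma), in 3 of 3 cultures. No group of 3 arrays is large enough to be searched for single arrays that stand apart.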

How the results depend on the processing

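Each result was recomputed under the listed alternatives; of 645 recomputed values of single genes, 555 kept their direction and side of the threshold, 50 lost the call, 18 gained one and 22 changed sign, of which 0 were called under either setting. The cause of the changes was not tested. The sign changes were these. In the comparison with P0, CLDN5 went from 0.00 to -0.06 with quantile normalization and ranged from -0.55 to 1.05 with 1 array left out, ECSCR from -0.05 to 1.62 and ERG from -0.09 to 0.49. Without all arrays numbered 3, the 8 h values of CDH5, TEK and TIE1 were -0.03, -0.03 and 0.11, and TEK was at 0.00 at 24 h and 0.03 between times. With 1 array left out, CDH5 ranged from -0.10 to 0.13 and TIE1 from -0.28 to 0.15 at 8 h, and TEK from -0.05 to 0.19 at 24 h and from -0.15 to 0.06 between times. For replicate number, ERG was 0.22 without the untreated group and ranged from -0.48 to 0.22 with 1 array left out. Of the 10 endothelial genes, the comparison with P0 called 2 with the replicate block, 6 without all arrays numbered 3, and 0 to 2 with 1 array left out, against 1 (where 0, limma gave 1 at an unadjusted p under 0.05). At 8 h the count went from 3 to 1 without a filter on low values and to 1 without the block, and was 1 to 2 with 1 array left out. At 24 h it went from 5 to 1 without the block and was 3 to 5 with 1 array left out. Between 8 h and 24 h it was 2 with the filter at log2 6, with quantile normalization or with a trended robust variance, 3 when all probe sets were counted, and 0 without the block (0 at an unadjusted p under 0.05, limma). With 1 array left out it was 0 to 1 (where 0, limma gave 4 or 5 at an unadjusted p under 0.05). For replicate number it was 8 to 9 with 1 array left out.

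Over all probe sets, calls at 8 h went from 2200 to 894 without the block, 636 without all arrays numbered 3 and 614 to 1546 with 1 array left out. At 24 h they went from 3519 to 1498, 1845 and 2036 to 2821 in the same order. Between times they went from 430 to 41, 46 and 24 to 435, and were 206 without a filter, 760 with the filter at log2 6 and 937 with the trended robust variance. For replicate number they went from 2178 to 3351 with that variance, to 636, 214 and 635 without the untreated, 8 h or 24 h group, and to 740 to 1431 with 1 array left out. With P0 they were 9577 to 9919 with 1 array left out, against 10483.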
